A study of Mus musculus with 9 samples.

Results

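The genes described here were 38 genes of the unfolded protein response and of the amino acid arm of the integrated stress response, measured by RNA sequencing in duodenal organoids that overexpressed HIF2 or HIF1. They were found by symbol, and each of the 38 symbols matched a single gene among the 46517 in the deposited tables. All cultures were three-dimensional organoids grown in basement membrane matrix from duodenal crypts of wild-type C57BL/6 mice, in L-WRN medium (conditioned by cells that secrete Wnt3a, R-spondin 3 and noggin) and at 5% oxygen. The control group, Ad-GFP, received an adenovirus carrying green fluorescent protein. The Ad-hHIF2 and Ad-hHIF1 groups received adenoviruses carrying human HIF2 or human HIF1 in which the key prolines were replaced by alanine, so that the proteins escape hydroxylation and degradation through VHL. Every group was transduced at 50 particles per cell, total RNA was purified about 72 hours later, and each group held 3 samples, numbered 1, 3 and 4. Transduction was transient and not directed at a cell type, and the labels do not say which animal or culture a sample came from. The p-values therefore measure the spread between these samples only.

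Proteins that fold poorly in the endoplasmic reticulum (ER) are sensed by PERK (Eif2ak3), IRE1 (Ern1) and ATF6, whose signals raise ER chaperones, speed the removal of misfolded proteins and slow translation. PERK shares its target, the translation factor eIF2, with GCN2 (Eif2ak4), which senses uncharged transfer RNA, and PKR (Eif2ak2), which senses double-stranded RNA. Phosphorylated eIF2 lowers general translation but favours translation of ATF4, a transcription factor whose targets include amino acid synthesis enzymes, transporters, tRNA synthetases and the transcription factor CHOP (Ddit3). ATF4 and the sensors are controlled mainly at the protein level, XBP1 also by splicing, and neither protein nor splice forms were measured in these gene-level data.

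The libraries held 21722618 to 51119041 expected counts, and every member had more than 200 expected counts in every sample (lowest, 214 for Eif2ak3 in 1 sample). Values below are CPM, counts scaled to a common library total with TMM factors over all 9 samples, and a gene was called where edgeR's quasi-likelihood test gave a Benjamini-Hochberg adjusted p below 0.05 over all genes tested. Epas1, the mouse gene for HIF2, stood at 1.47 to 2.20 CPM in Ad-GFP and at 604 to 758 CPM in Ad-hHIF2, and Hif1a at 198 to 251 CPM in Ad-GFP and 299 to 319 CPM in Ad-hHIF1. The log2 difference of Hif1a with Ad-hHIF1, 0.49, was not called (adjusted p = 0.486, edgeR). It was called only without a count filter and by DESeq2. Reads of the human transgenes count here only where they were given to the mouse genes. The keratins Krt8, Krt18 and Krt19 were at 764 to 1358 CPM, but Epcam reached only 3.80 CPM, Cdx1 was at 0 in every sample, and the stem cell markers Lgr5 and Olfm4 stayed at or below 1.19 CPM. All 7 Paneth cell markers and all 7 enteroendocrine markers were below 1 CPM in every sample, with Defa17, Defa24, Defa30, Ang4 and Gip at 0. The summed goblet cell markers were 6.04 to 9.35 CPM in Ad-GFP, 2.70 to 2.81 CPM in Ad-hHIF2 and 4.45 to 6.17 CPM in Ad-hHIF1, and the summed stem cell markers 6.65 to 13.4, 4.04 to 4.50 and 7.79 to 9.72 CPM. Most of the latter sum was Sox9 (means of 8.30, 2.65 and 7.46 CPM), while Lgr5 (0.201, 0.691 and 0.175 CPM) and Axin2 (0.445, 0.878 and 0.354 CPM) had their highest means in Ad-hHIF2. Their part in the results below was not tested. Among the libraries, Ad-hHIF1 replicate 3 gave 16.0% of its counts to the satellite-like genes Gm10800 and Gm26870 (0.433% to 4.28% elsewhere), and Ad-hHIF2 replicate 1 gave 59.2% of its counts to protein-coding genes (41.7% to 49.4% elsewhere). In bulk RNA, fewer cells of a type and less RNA per cell cannot be told apart.

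The promoters of the members carry short elements through which this response is known to act, and the sequences that set members apart are given before their values. RefSeq promoters of build GRCm38.p6 (250 bases before to 50 after a gene's start, 300 bases in all) were found for 34 of the 38 members, as 38 promoters, and motifs were searched on both strands with any overlap allowed. The ER stress element (CCAAT, any 9 bases, then CCACG), which ATF6 and NF-Y are known to bind, matched in 7 members, against 0.119% of all 32851 promoters. The 8 matches are shown because 6 of these 7 members are ER chaperones or folding enzymes whose values follow. Each is written 5′ to 3′ on the strand that reads CCAAT, with the fixed letters in capitals.
Calr chr8:84847075-84847093 (plus strand): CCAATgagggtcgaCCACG
Canx chr11:50325800-50325818 (minus strand): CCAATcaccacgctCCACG
Creld2 chr15:88819520-88819538 (minus strand): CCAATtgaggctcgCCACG
Dnajc3 chr14:118937827-118937845 (plus strand): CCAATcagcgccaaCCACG
Hsp90b1 chr10:86705533-86705551 (plus strand): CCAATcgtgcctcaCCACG
Hsp90b1 chr10:86705638-86705656 (minus strand): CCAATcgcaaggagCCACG
Hspa5 chr2:34772025-34772043 (plus strand): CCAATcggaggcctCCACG
Pdia6 chr12:17266491-17266509 (plus strand): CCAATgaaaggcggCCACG
Herpud1 alone held the shorter ER stress element II, ATTGG, any base, then CCACG (0.0365% of all promoters), and it also held the core of the C/EBP-ATF response element, TGATGNAA, which ATF4 is known to use. That core was found in Asns, Chac1, Herpud1, Pycr1, Trib3 and Vldlr, against 3.97% of all promoters. Below, the stretch of the Herpud1 promoter on chr8:94386179-94386428 (plus strand) is shown with the core, here on the opposite strand, and then the ER stress element II in capitals. The Hsp90b1 stretch on chr10:86705510-86705694 (minus strand) is shown because it holds a pair of ER stress elements, in capitals. The Ddit4 stretch on chr10:59951835-59952020 (minus strand) is shown as an example of the hypoxia response element core in both of its letter forms, ACGTG and GCGTG, in capitals, which 12 of the members held. Of these, Ddit3, Ddit4, Hspa5 and Herpud1 were lower with Ad-hHIF2 than in Ad-GFP, where 13.6% of all genes and 11 of the 38 members were. The others, Aldh18a1, Asns, Calr, Dnajc3, Pdia6, Ppp1r15a, Psat1 and Psph, were not called in that comparison.
Herpud1: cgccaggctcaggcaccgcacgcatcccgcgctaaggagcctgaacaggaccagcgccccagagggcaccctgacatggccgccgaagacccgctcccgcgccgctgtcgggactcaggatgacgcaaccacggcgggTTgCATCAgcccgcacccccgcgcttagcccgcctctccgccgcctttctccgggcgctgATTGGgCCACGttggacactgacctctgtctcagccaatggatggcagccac
Hsp90b1: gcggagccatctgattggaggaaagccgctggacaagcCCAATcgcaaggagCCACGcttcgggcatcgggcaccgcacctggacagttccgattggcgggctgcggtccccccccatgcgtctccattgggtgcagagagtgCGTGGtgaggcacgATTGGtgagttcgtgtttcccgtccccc
Ddit4: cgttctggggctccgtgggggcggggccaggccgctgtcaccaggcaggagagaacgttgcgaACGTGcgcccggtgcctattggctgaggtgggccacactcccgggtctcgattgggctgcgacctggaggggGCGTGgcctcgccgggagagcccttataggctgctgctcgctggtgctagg
The core ACGTG was present in 13 of the 38 member promoters (34.2%, against 19.6% of all promoters) and GCGTG in 27 (71.1%, against 32.4%). Of the 8 ER stress element matches, 4 shared bases with a hypoxia core (in Calr, Canx and both in Hsp90b1), as did the ER stress element II of Herpud1. A match is a description of these letters in this window, not evidence of a bound site.

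Per length, in TPM (the length-scaled values of RSEM), the highest members in Ad-GFP were ER chaperones: Hspa5 at a mean of 97.9, Calr at 79.8 and Hsp90b1 at 48.3. Herpud1 (27.9), Atf4 (27.7) and Ddit3 (25.1) followed. The lowest 5 were Ern1 at 1.25, the proline synthesis enzyme Pycr1 at 1.14, and the eIF2 kinases Eif2ak4 at 0.860, Eif2ak2 at 0.593 and Eif2ak3 at 0.453 TPM, while the sensor Atf6 stood at 1.91 TPM.

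In HIF2-overexpressing organoids, the largest differences among the members were decreases in Ddit3 and Ddit4, followed by an increase in Vldlr. Decreases in the ER chaperone Hspa5, in Herpud1 and in the ER chaperone Hsp90b1 came next, and Eif2ak3 and Eif2ak2 also increased. Against Ad-GFP, 14 of the 38 members were called, 3 higher and 11 lower, where 29.5% of all 14987 genes tested were called (15.9% higher and 13.6% lower). At a change of at least 2-fold, 2 members were called, both lower (Ddit3 and Ddit4), against 6.73% of all genes (2.9% higher and 3.83% lower). At an unadjusted p below 0.05 there were 18 members, against 41.2% of all genes. All samples of the Ad-hHIF2 group lay above all Ad-GFP samples for 7 members and below them for 17, against 23.4% and 22.4% of all genes (45.8% together). The median log2 difference of the members was -0.06, beside -0.01 over all genes tested. The split of calls depended on how samples were scaled: with total counts alone it was 4 higher and 3 lower, and with TPM summed over protein-coding genes 9 higher and 3 lower, while these scalings moved the median log2 difference of all genes tested to 0.24 in each case and that of the members to 0.20 and 0.19. With total counts of protein-coding genes the same 14 members were called, and without Ad-hHIF2 replicate 1 there were 10 calls, all among the 14.

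**Figure D1:**
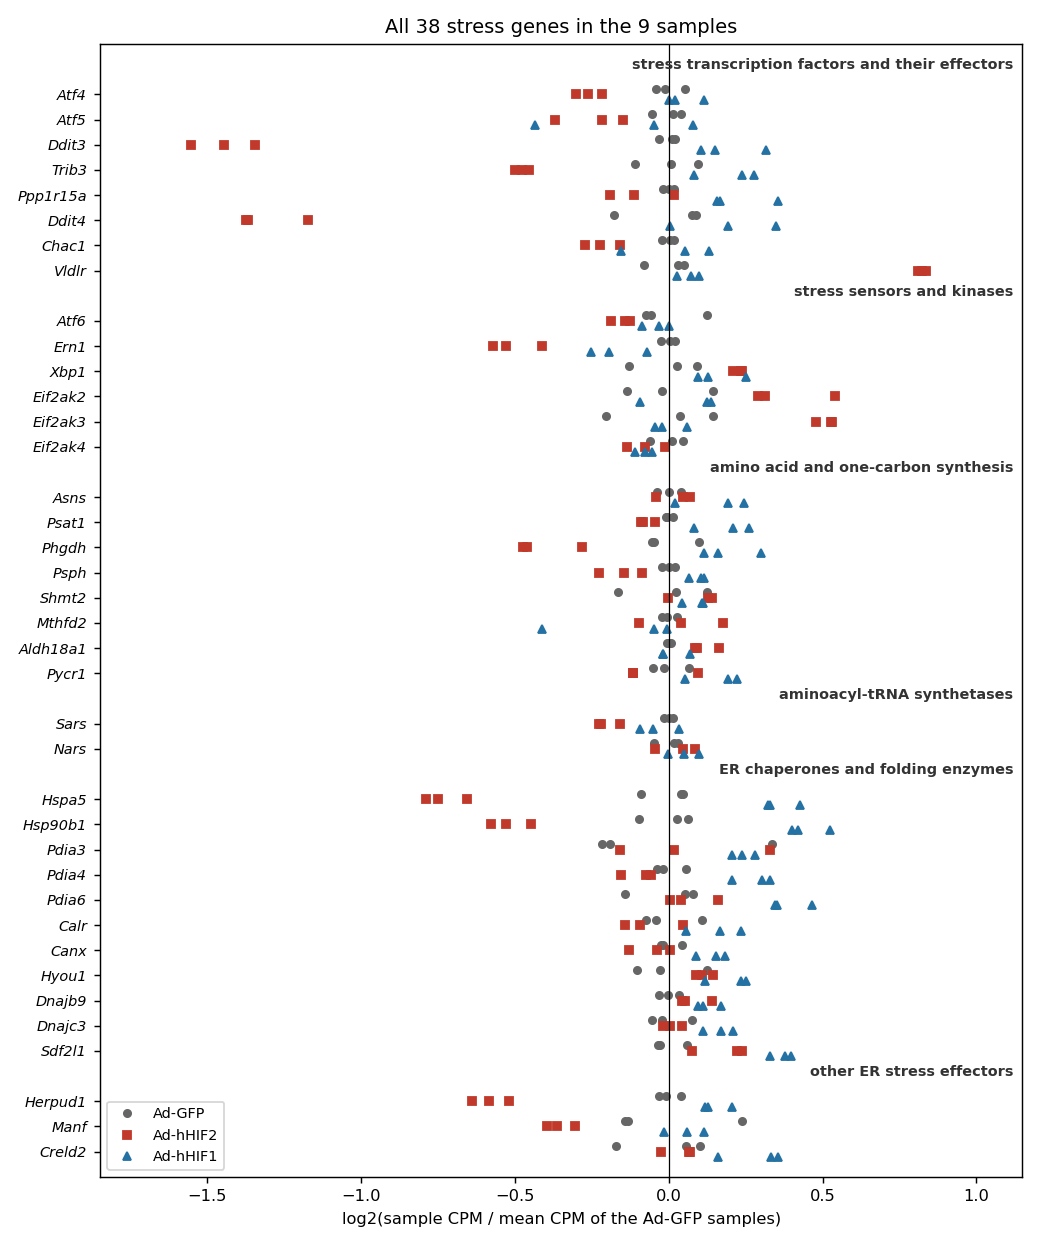
Log2 of each sample's CPM over the mean CPM of the Ad-GFP group, as points, for all 38 members arranged by role. Colour and marker give the group of each of the 9 samples. The Ad-hHIF2 points lie below 0 for Ddit3, Ddit4, Hspa5, Hsp90b1 and Herpud1 and above 0 for Vldlr. Most ER chaperones lie slightly above 0 in Ad-hHIF1 (3 of the 11 are below Ad-GFP when TPM is summed over protein-coding genes).

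Of the 8 stress transcription factors and their effectors, 5 fell and 1 rose with Ad-hHIF2 (13.6% and 15.9% of all genes), although with total counts and on every TPM scale only 3 of the 8 differences were below 0. Ddit3 (chr10:127290774-127296288, build GRCm38), which encodes the pro-apoptotic transcription factor CHOP, stood at 155, 157 and 151 CPM in Ad-GFP, at 60.8, 56.6 and 52.6 CPM in Ad-hHIF2 and at 171, 166 and 192 CPM in Ad-hHIF1. The Ad-hHIF2 samples were the lowest of the 9 and did not overlap with either other group. Ddit3 was 2.71-fold lower than in Ad-GFP, with a log2 difference of -1.44 (SE 0.0766, adjusted p = 5.19e-06, edgeR's quasi-likelihood test with Benjamini-Hochberg adjustment, as for all adjusted p-values below). Ddit4 (chr10:59949669-59951834), an inhibitor of mTORC1 signalling known to respond to hypoxia and to ATF4, stood at 52.6, 53.2 and 44.1 CPM in Ad-GFP, at 19.3, 22.2 and 19.3 CPM in Ad-hHIF2 and at 57.0, 50.1 and 63.6 CPM in Ad-hHIF1. Again the Ad-hHIF2 samples were below all others, and the other groups overlapped. Its log2 difference from Ad-GFP was -1.30 (SE 0.0968, adjusted p = 3.64e-05, edgeR), a 2.46-fold decrease. Leaving out any 1 of the 6 samples kept both calls, log2(TPM + 1) lost both and log2(TPM + 0.1) lost that of Ddit4.

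Trib3, a pseudokinase that restrains ATF4 and AKT signalling, stood at 79.9, 75.3 and 69.4 CPM in Ad-GFP, at 53.8, 53.0 and 54.7 CPM in Ad-hHIF2 and at 88.4, 79.3 and 90.8 CPM in Ad-hHIF1. The Ad-hHIF2 samples were again the lowest, without overlap. Trib3 fell by 0.47 on the log2 scale (SE 0.0741, adjusted p = 0.00201, edgeR), a call lost with total counts and on every TPM scale (adjusted p up to 0.995). Atf4 itself was at 350, 357 and 374 CPM in Ad-GFP, at 310, 292 and 300 CPM in Ad-hHIF2 and at 361, 365 and 390 CPM in Ad-hHIF1. The Ad-hHIF2 samples were below all others by a small margin. Its log2 difference from Ad-GFP was -0.26 (SE 0.0746, adjusted p = 0.0323, edgeR), a call that was lost with any 1 of the 6 samples left out (adjusted p up to 0.113) and with the replicate block (adjusted p = 0.0509), and whose sign turned with total counts and with every TPM scale. Chac1, an enzyme that degrades glutathione, had group means of 48.0 ± 0.638, 41.3 ± 1.65 and 48.5 ± 4.84 CPM (SD, n = 3) in Ad-GFP, Ad-hHIF2 and Ad-hHIF1. Its decrease with Ad-hHIF2 (log2 difference -0.21, SE 0.0627, adjusted p = 0.0337, edgeR) was lost with any 1 of the 6 samples left out, up to an adjusted p of 0.133, and turned positive under the same scalings as Atf4.

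Vldlr (chr19:27216484-27254231), a lipoprotein receptor known as a target of both ATF4 and the HIFs, moved the other way. It stood at 92.5, 91.2 and 84.5 CPM in Ad-GFP, at 157, 160 and 158 CPM in Ad-hHIF2 and at 95.7, 91.0 and 94.0 CPM in Ad-hHIF1. The Ad-hHIF2 samples were the highest, without overlap, and the other groups overlapped. Vldlr was 1.77-fold higher than in Ad-GFP (log2 difference 0.83, SE 0.0714, adjusted p = 8.14e-05, edgeR), and all 12 other settings called it. Ppp1r15a, the stress-induced partner of the phosphatase that restores eIF2, was at 94.2, 95.6 and 96.6 CPM in Ad-GFP, at 96.7, 83.6 and 88.2 CPM in Ad-hHIF2 and at 107, 106 and 122 CPM in Ad-hHIF1. The first pair of groups overlapped, and its log2 difference of -0.09 was not called (adjusted p = 0.407, edgeR). Atf5, a related transcription factor, averaged 22.7 ± 0.771 CPM in Ad-GFP and 19.2 ± 1.48 CPM in Ad-hHIF2 (SD, n = 3) and missed the threshold (adjusted p = 0.0574, edgeR), while the replicate block and a minimum of 10 counts in every sample each called it (adjusted p down to 0.0404).

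**Figure D2:**
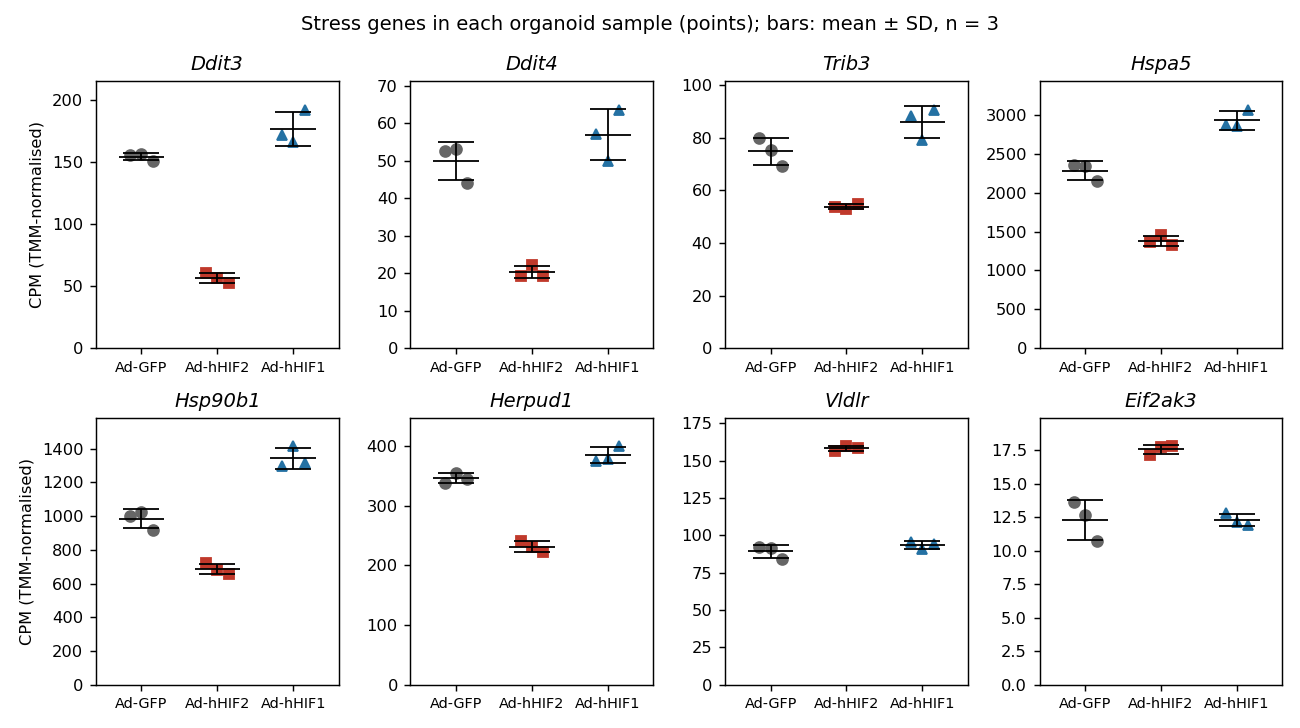
CPM of 8 members in each of the 9 samples, as points, with the mean ± SD of each group of 3. Ddit3, Ddit4, Trib3, Hspa5, Hsp90b1 and Herpud1 are lowest in Ad-hHIF2, and Vldlr and Eif2ak3 are highest there, without overlap with the other groups.

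Of the 6 sensors and kinases, 2 were higher with Ad-hHIF2, 1 was lower and 3 were not called, beside 15.9% of all genes higher and 13.6% lower. With total counts, and with TPM summed over protein-coding genes, the split was 3 higher and 0 lower. Ern1, the gene for IRE1, stood at 59.8, 61.8 and 61.1 CPM in Ad-GFP, at 45.7, 42.2 and 41.0 CPM in Ad-hHIF2 and at 58.0, 51.1 and 53.2 CPM in Ad-hHIF1. The 3 groups did not overlap, with Ad-hHIF2 the lowest. Ern1 fell by 0.50 on the log2 scale against Ad-GFP (SE 0.0675, adjusted p = 0.000943, edgeR), a call lost with total counts and on every TPM scale (adjusted p up to 0.915). Eif2ak3, the gene for PERK, stood at 13.6, 12.6 and 10.7 CPM in Ad-GFP, at 17.1, 17.7 and 17.8 CPM in Ad-hHIF2 and at 12.8, 12.1 and 11.9 CPM in Ad-hHIF1. Here the Ad-hHIF2 samples were the highest, without overlap. Eif2ak3 rose by 0.51 on the log2 scale (SE 0.102, adjusted p = 0.00663, edgeR), a call lost on both TPM scales that sum over all genes (adjusted p up to 0.338). Eif2ak2, the gene for PKR, was at 16.6, 15.3 and 18.6 CPM in Ad-GFP, at 24.5, 20.6 and 20.9 CPM in Ad-hHIF2 and at 18.3, 15.8 and 18.5 CPM in Ad-hHIF1, so the Ad-hHIF2 samples were above all others. Its log2 difference of 0.39 (SE 0.103, adjusted p = 0.0206, edgeR) lost its call without Ad-GFP replicate 1, Ad-GFP replicate 3 or Ad-hHIF2 replicate 1 (adjusted p up to 0.0836), and on both TPM scales that sum over all genes (up to 0.318). Expected counts of Eif2ak2 and Eif2ak3 were fractional in all 9 samples, since some of their reads were shared with other features.

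Atf6 was at 105.8, 104.4 and 119.8 CPM in Ad-GFP, at 100.8, 99.7 and 96.5 CPM in Ad-hHIF2 and at 110, 104 and 108 CPM in Ad-hHIF1. The Ad-hHIF2 samples were the lowest, but the log2 difference of -0.15 was not called (adjusted p = 0.201, edgeR). Xbp1, whose messenger RNA IRE1 splices, was at 74.7, 71.4 and 64.1 CPM in Ad-GFP, at 81.0, 82.5 and 82.6 CPM in Ad-hHIF2 and at 76.5, 74.9 and 83.4 CPM in Ad-hHIF1. Both HIF groups lay above Ad-GFP. The log2 difference of Xbp1 with Ad-hHIF2, 0.23 (SE 0.0768), narrowly missed the threshold (adjusted p = 0.0515, edgeR), and 5 of 12 other settings, DESeq2 among them, called it. Eif2ak4 differed by -0.07 and was not called (adjusted p = 0.480, edgeR).

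Among the 8 enzymes of amino acid and one-carbon synthesis, which ATF4 is known to induce, only Phgdh was called with Ad-hHIF2 by edgeR (12.5%, beside 13.6% of all genes lower), and neither tRNA synthetase among the members (Sars and Nars) was. Phgdh, which opens the serine synthesis pathway, stood at 299, 269 and 271 CPM in Ad-GFP, at 203, 230 and 201 CPM in Ad-hHIF2 and at 312, 303 and 344 CPM in Ad-hHIF1. The 3 groups did not overlap. Phgdh differed from Ad-GFP by -0.40 on the log2 scale (SE 0.0893, adjusted p = 0.0109, edgeR), a decrease that missed the threshold without Ad-hHIF2 replicate 4 (adjusted p = 0.0574), with total counts and on every TPM scale and whose sign turned on both TPM scales that sum over all genes. The next enzymes of that pathway, Psat1 and Psph, differed by -0.07 (adjusted p = 0.486, edgeR) and -0.15 (adjusted p = 0.140, edgeR). Asns, the asparagine synthetase that serves as a common readout of ATF4, averaged 107 ± 2.88 CPM in Ad-GFP and 109 ± 4.29 CPM in Ad-hHIF2 (SD, n = 3), and its 95% interval on the log2 scale ran from -0.13 to 0.19. Shmt2 and Mthfd2 of the mitochondrial folate cycle differed by 0.09 and 0.05, and Aldh18a1 and Pycr1 of proline synthesis by 0.12 and -0.04, none of them called by edgeR. With TPM summed over protein-coding genes Mthfd2 (adjusted p = 0.00756) and Aldh18a1 (adjusted p = 0.0329) were called higher, so that the split of the 8 enzymes turned from 0 higher and 1 lower to 2 higher and 0 lower. Sars differed by -0.20 (adjusted p = 0.0738, edgeR; called by DESeq2) and Nars by 0.03. Expected counts of Phgdh were fractional in all 9 samples and those of Psph in 8.

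Of the 11 ER chaperones and folding enzymes, 2 fell with Ad-hHIF2 and 9 were not called, a share (18.2%) near the 13.6% of all genes that fell. With TPM summed over protein-coding genes the split turned to 3 higher (Hyou1, Dnajb9 and Sdf2l1) and 0 lower. Hspa5 (chr2:34771970-34777547), which encodes BiP, the main Hsp70 chaperone of the ER, stood at 2361, 2346 and 2147 CPM in Ad-GFP, at 1359, 1450 and 1323 CPM in Ad-hHIF2 and at 2870, 2856 and 3069 CPM in Ad-hHIF1. The groups did not overlap, with Ad-hHIF2 the lowest and Ad-hHIF1 the highest. Hspa5 was 1.65-fold lower with Ad-hHIF2 than in Ad-GFP (log2 difference -0.73, SE 0.0864, adjusted p = 0.000475, edgeR). Hsp90b1 (chr10:86690209-86705509), the Hsp90 chaperone of the ER, had the same order, with 1002, 1027 and 919 CPM in Ad-GFP, 720, 681 and 659 CPM in Ad-hHIF2 and 1297, 1413 and 1314 CPM in Ad-hHIF1. It was 1.43-fold lower with Ad-hHIF2 than in Ad-GFP (log2 difference -0.51, SE 0.0825, adjusted p = 0.00229, edgeR). Leaving out any 1 of the 6 samples kept both calls, while total counts lost that of Hsp90b1 and every TPM scale lost both. The other 9 had log2 differences from -0.09 (Pdia4) to 0.18 (Sdf2l1, adjusted p = 0.0964, edgeR). Pdia3, a protein disulfide isomerase, varied widely within groups, with 359, 366 and 527 CPM in Ad-GFP alone.

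Among the 3 other ER stress effectors, Herpud1 and Manf were called lower (13.6% of all genes) and Creld2 was not called, while total counts called 0 of the 3. Herpud1 (chr8:94386438-94395377), a membrane component of ER-associated degradation, stood at 338, 355 and 344 CPM in Ad-GFP, at 241, 230 and 222 CPM in Ad-hHIF2 and at 375, 378 and 399 CPM in Ad-hHIF1. The groups did not overlap. Herpud1 fell by 0.58 on the log2 scale with Ad-hHIF2 (SE 0.0736, adjusted p = 0.00069, edgeR), a 1.49-fold decrease whose call was lost with total counts and on both TPM scales that sum over all genes (adjusted p up to 0.741). Manf, a secreted and ER-resident survival factor, was at 124, 124 and 161 CPM in Ad-GFP, at 104, 106 and 110 CPM in Ad-hHIF2 and at 142, 135 and 148 CPM in Ad-hHIF1. Ad-GFP replicate 4 was the highest sample, and the Ad-hHIF2 samples were below all others. The decrease of Manf (log2 difference -0.35, SE 0.112, adjusted p = 0.0462, edgeR) was kept in only 1 of the 6 fits that left out a sample, the one without Ad-GFP replicate 3 (adjusted p up to 0.139 in the others), and its sign turned on every TPM scale. Creld2 differed by 0.04. Expected counts of Manf were fractional in all 9 samples and those of Hsp90b1 in 8.

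HIF1-overexpressing organoids were compared with the same Ad-GFP samples, so the differences with Ad-hHIF1 and Ad-hHIF2 are not independent. None of the 38 members was called, with a smallest adjusted p of 0.486 (edgeR's quasi-likelihood test), and 0.0% of the 15233 genes tested were called. At an unadjusted p below 0.05 the test gave 12 members, against 8.59% of all genes. DESeq2 called 5 members (Hspa5, Hsp90b1, Pdia4, Pdia6 and Sdf2l1), all higher, among 144 genes in all, and the quasi-likelihood test without a count filter called 1, Hsp90b1, among 384 genes. The groups did not overlap for 16 members that were higher and 1 that was lower, Ern1, against 8.38% and 9.06% of all genes (17.4% together). The median log2 difference of the members was 0.15, beside 0.00 over all genes, and with TPM summed over protein-coding genes it was -0.05 beside -0.17. Leaving out Ad-hHIF1 replicate 3, the library rich in satellite-like reads, gave a member median of 0.14 and again no call.

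All 11 ER chaperones and folding enzymes had log2 differences above 0 with Ad-hHIF1, from 0.13 (Dnajb9) to 0.45 (Hsp90b1), in every setting except the TPM summed over protein-coding genes, where 3 were below 0. For 8 of the 11 the Ad-hHIF1 samples lay above all Ad-GFP samples, against 8.38% of all genes. Hspa5 differed by 0.36 (SE 0.0830) and Hsp90b1 by 0.45 (SE 0.0834), each with an adjusted p of 0.486 in edgeR's test. The 95% interval of Hspa5, not adjusted for the number of genes, ran from 0.17 to 0.55, so the absence of a call does not show that the groups were alike. The common biological coefficient of variation, a value over all genes tested, was 0.240 in this comparison, above the 0.165 of Ad-hHIF2 against Ad-GFP. The SEs of Hspa5 and Hsp90b1 were nearly the same in that other comparison (0.0864 and 0.0825). Pdia4 and Pdia6, a pair of protein disulfide isomerases, differed by 0.28 and 0.39. Pdia4 stood at 270, 274 and 288 CPM in Ad-GFP, at 263, 267 and 249 CPM in Ad-hHIF2 and at 342, 320 and 348 CPM in Ad-hHIF1. Pdia6 stood at 286, 281 and 245 CPM in Ad-GFP, at 278, 302 and 271 CPM in Ad-hHIF2 and at 345, 343 and 373 CPM in Ad-hHIF1. For both, the Ad-hHIF1 samples were the 3 highest of the 9. Ddit3 differed by 0.19 and Ddit4 by 0.19, and neither was called (adjusted p = 0.581 and 0.653, edgeR).

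**Figure D3:**
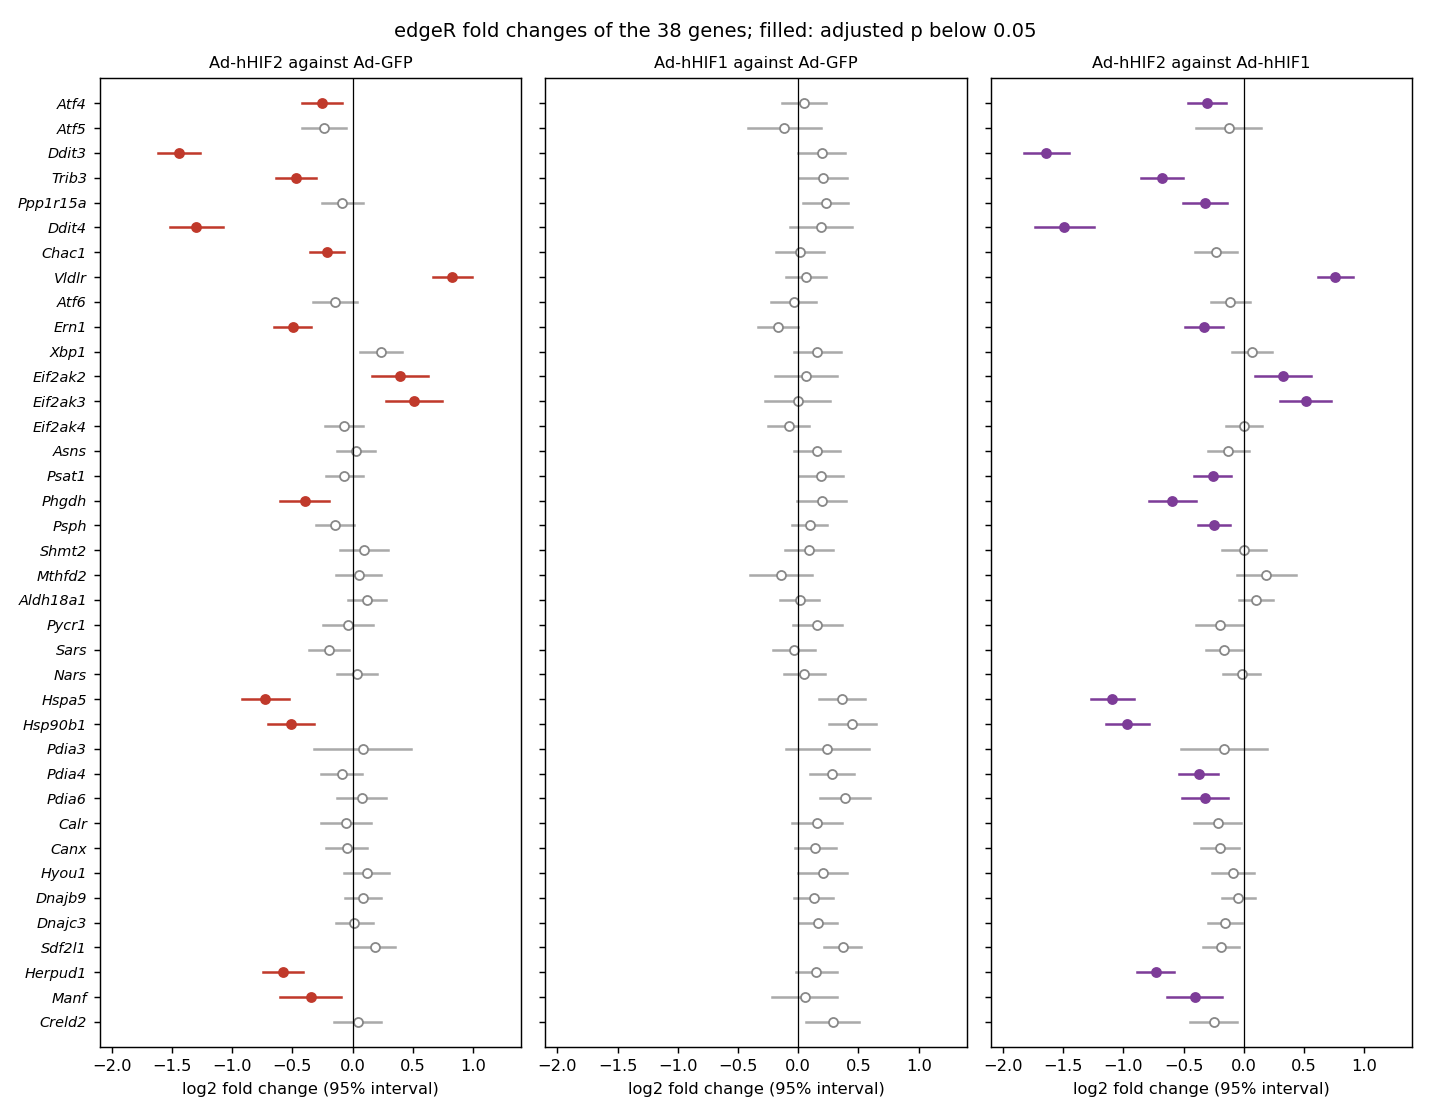
Log2 difference of each member, with its 95% interval, in the 3 comparisons, with filled points where edgeR's adjusted p was below 0.05. The comparison of Ad-hHIF1 with Ad-GFP has no filled point, and the other 2 panels have 14 and 18.

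Ad-hHIF2 was then compared directly with Ad-hHIF1, which tests whether the HIFs differed from each other. Of the 38 members 18 were called, 3 higher with Ad-hHIF2 (Vldlr, Eif2ak3 and Eif2ak2) and 15 lower, where 25.8% of the 15556 genes tested were called (13.7% higher and 12.0% lower). At 2-fold, 3 members were called, all lower with Ad-hHIF2 (Ddit3, Ddit4 and Hspa5), against 6.11% of all genes (2.42% higher and 3.7% lower). At an unadjusted p below 0.05 there were 26 members, against 37.4% of all genes. The groups did not overlap for 4 members that were higher and 23 that were lower with Ad-hHIF2, against 22.7% and 19.1% of all genes (41.8% together). The median log2 difference of the members was -0.20, beside -0.01 over all genes, but it was -0.02 beside 0.17 with total counts, 0.05 on both TPM scales that sum over all genes and 0.23 beside 0.41 with TPM summed over protein-coding genes. Without Ad-hHIF2 replicate 1 or without Ad-hHIF1 replicate 4 there were 13 calls each, and without Ad-hHIF1 replicate 3 there were 18, of which 16 were shared. With total counts of protein-coding genes 9 members were called (2 higher and 7 lower), all among the 18, and with TPM summed over protein-coding genes 4, 2 in each direction. The calls of Ddit3 and Ddit4 held in all 12 other settings, those of Vldlr and Eif2ak3 in all but both TPM scales that sum over all genes, and those of Trib3, Hspa5, Hsp90b1 and Herpud1 in all but the 3 TPM scales, while the other 10 were also lost with total counts.

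Ddit3 was 3.11-fold lower with Ad-hHIF2 than with Ad-hHIF1 (log2 difference -1.64, SE 0.0834, adjusted p = 6.05e-07, edgeR). Ddit4 was 2.81-fold lower (log2 difference -1.49, SE 0.109, adjusted p = 7.23e-06, edgeR), and Trib3 differed by -0.68 (SE 0.0773, adjusted p = 0.000153, edgeR). Atf4, known to act upstream of these effectors, differed by -0.31 (SE 0.0705, adjusted p = 0.0100, edgeR). That call was kept in 6 of the 12 other settings. It was lost, for instance, without a count filter and with total counts of protein-coding genes. The sign of Atf4 was opposite under TPM summed over protein-coding genes, and its part in these decreases was not tested. Ppp1r15a differed by -0.32 (SE 0.0807, adjusted p = 0.0150, edgeR), a call that was lost without Ad-hHIF2 replicate 3, Ad-hHIF2 replicate 4 or Ad-hHIF1 replicate 4 (adjusted p up to 0.0630). Vldlr was 1.69-fold higher with Ad-hHIF2 (log2 difference 0.76, SE 0.0653, adjusted p = 2.18e-05, edgeR). Chac1 differed by -0.23 and narrowly missed the threshold (adjusted p = 0.0537, edgeR), and 3 of the 12 other settings called it.

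Hspa5 was 2.13-fold lower with Ad-hHIF2 than with Ad-hHIF1 (log2 difference -1.09, SE 0.0792, adjusted p = 6.78e-06, edgeR), and Hsp90b1 was 1.95-fold lower (log2 difference -0.97, SE 0.0792, adjusted p = 1.52e-05, edgeR). All 11 ER chaperones and folding enzymes had differences below 0, 4 of them called (12.0% of all genes were called lower), but 3 of the 11 were above 0 with total counts, 1 with total counts of protein-coding genes, 5 on both TPM scales that sum over all genes and 9 with TPM summed over protein-coding genes. Pdia4 differed by -0.38 (adjusted p = 0.00364, edgeR) and Pdia6 by -0.32 (adjusted p = 0.0206, edgeR), both above 0 under TPM summed over protein-coding genes, and Sdf2l1 by -0.19 (adjusted p = 0.0639, edgeR, called with a minimum of 10 counts in every sample). The call of Pdia6 was lost without Ad-hHIF2 replicate 1, Ad-hHIF2 replicate 4 or Ad-hHIF1 replicate 4 (adjusted p up to 0.0934). Herpud1 was 1.66-fold lower (log2 difference -0.73, SE 0.0701, adjusted p = 4.64e-05, edgeR). Manf differed by -0.41 (SE 0.103, adjusted p = 0.0160, edgeR), a call that was lost without Ad-hHIF2 replicate 1 or Ad-hHIF1 replicate 4 (adjusted p up to 0.0654) and whose sign turned on every TPM scale.

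Of the sensors, Ern1 differed by -0.33 (SE 0.0715, adjusted p = 0.00695, edgeR), with the opposite sign under TPM summed over protein-coding genes, and Eif2ak3 by 0.51 (SE 0.0962, adjusted p = 0.00322, edgeR). Eif2ak2 differed by 0.32 (SE 0.106, adjusted p = 0.0461, edgeR), a call kept in only 1 of the 9 fits that left out a sample, the one without Ad-GFP replicate 4 (adjusted p up to 0.172). Atf6 (-0.11) and Xbp1 (0.07) were not called. Of the 8 enzymes of amino acid and one-carbon synthesis, 3 were called, all lower with Ad-hHIF2 than with Ad-hHIF1 (beside 12.0% of all genes). They were Phgdh, Psat1 and Psph of serine synthesis, while Asns, Shmt2, Mthfd2, Aldh18a1 and Pycr1 were not called. These 3 calls were lost with total counts and on every TPM scale. Those of Psat1 and Psph were also lost without a count filter and with total counts of protein-coding genes. Phgdh differed by -0.60 (SE 0.0874, adjusted p = 0.000785, edgeR). Psat1, at 205, 202 and 202 CPM in Ad-GFP, 197, 191 and 191 CPM in Ad-hHIF2 and 215, 243 and 235 CPM in Ad-hHIF1, differed by -0.26 (SE 0.0702, adjusted p = 0.0219, edgeR). Psph, at 44.7, 44.0 and 45.3 CPM in Ad-GFP, 38.2, 40.4 and 42.0 CPM in Ad-hHIF2 and 46.8, 48.3 and 48.0 CPM in Ad-hHIF1, differed by -0.25 (SE 0.0609, adjusted p = 0.0140, edgeR). For each of the 3 the groups formed the same order without overlap, Ad-hHIF2 lowest and Ad-hHIF1 highest. The call of Psat1 was kept in 4 of the 9 fits that left out a sample (adjusted p up to 0.0857; lost without Ad-hHIF1 replicate 3 or 4 or any Ad-hHIF2 sample) and that of Psph in 8 (lost without Ad-hHIF2 replicate 1, adjusted p = 0.0758). Psat1 turned positive on every TPM scale and Psph under TPM summed over protein-coding genes.

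Set beside the promoter elements, 2 of the 7 members with an ER stress element were lower with Ad-hHIF2 than in Ad-GFP (Hspa5 and Hsp90b1), where 13.6% of all genes were, and 3 were lower in the direct comparison (Hspa5, Hsp90b1 and Pdia6), where 12.0% of all genes were. With Ad-hHIF1 none of the 38 members was called with the main settings of edgeR, as given above. Of the 7, edgeR without a count filter called Hsp90b1 higher, and DESeq2 called Hspa5, Hsp90b1 and Pdia6 higher. So few members allow no statement about the element. The other members with that element, Calr, Canx, Creld2 and Dnajc3, were not called with the main settings of edgeR in any of the comparisons. Between the HIFs, however, DESeq2 called Calr, Canx and Creld2, and a minimum of 10 counts in every sample called Canx, Creld2 and Dnajc3. Of the 6 members with the C/EBP-ATF core, 3 were lower with Ad-hHIF2 than in Ad-GFP (Trib3, Chac1 and Herpud1), 1 was higher (Vldlr) and 2 were not called (Asns and Pycr1), against 13.6% lower and 15.9% higher over all genes. With total counts, the calls of Trib3, Chac1 and Herpud1 against Ad-GFP were lost and that of Vldlr was kept. In the direct comparison 2 were lower (Trib3 and Herpud1) and 1 higher (Vldlr). Of the 13 members with ACGTG, 4 were lower with Ad-hHIF2 than in Ad-GFP and 8 lower than with Ad-hHIF1, with none higher by edgeR. Of the 26 with GCGTG, 10 were lower and 1 higher than in Ad-GFP, and 13 were lower and 1 higher than with Ad-hHIF1. Among all 38 members, 11 were lower and 3 higher than in Ad-GFP (13.6% and 15.9% of all genes). Against Ad-hHIF1, 15 of the 38 were lower and 3 higher (12.0% and 13.7% of all genes). No link between these cores and the decreases was tested. With total counts, the only members called lower with Ad-hHIF2 were Ddit3, Ddit4 and Hspa5 against Ad-GFP. Against Ad-hHIF1 they were Ddit3, Ddit4, Trib3, Hspa5, Hsp90b1 and Herpud1. The higher member with GCGTG, Eif2ak2, then kept its call against Ad-GFP and lost it against Ad-hHIF1.

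The same pathways hold other genes, and 112 of them were listed, of which 111 were tested. Like the members, these genes were chosen with earlier results of these data known, so their counts are not an independent test. Against Ad-GFP, 29 of them rose and 21 fell with Ad-hHIF2, where 15.9% and 13.6% of all genes did, but the split was 38 and 9 with total counts and 41 and 9 with TPM summed over protein-coding genes. With Ad-hHIF1, no other gene was called with the main settings of edgeR (21 at an unadjusted p below 0.05, against 8.59% of all genes). Without a count filter edgeR called 3, with all 9 samples in a single fit it called 1, and DESeq2 called 5. In the direct comparison 24 were higher and 27 lower with Ad-hHIF2 (13.7% and 12.0% of all genes), but 21 and 11 with total counts and 17 and 3 with TPM summed over protein-coding genes. Of 30 other ATF4 and amino acid response genes, 4 rose and 12 fell with Ad-hHIF2, but the split was 6 and 6 with total counts and 8 and 6 with TPM summed over protein-coding genes. Atf3, a stress-induced transcription factor, stood at 76.2, 77.0 and 75.1 CPM in Ad-GFP, at 30.1, 28.0 and 26.2 CPM in Ad-hHIF2 and at 118, 130 and 123 CPM in Ad-hHIF1. Its groups did not overlap, with Ad-hHIF2 lowest and Ad-hHIF1 highest, as for Hspa5. Atf3 differed by -1.43 from Ad-GFP with Ad-hHIF2 (adjusted p = 3.91e-06, edgeR), by 0.70 with Ad-hHIF1 (not called, adjusted p = 0.0789, edgeR) and by -2.13 between the HIFs (adjusted p = 5.99e-08, edgeR). Mthfd1l of the mitochondrial folate cycle (-1.02), the cystine transporter Slc7a11 (-0.60) and the aspartate aminotransferase Got1 (-0.57) also fell with Ad-hHIF2. The largest increases of that list with Ad-hHIF2 were Sesn2, a leucine-binding inhibitor of mTORC1 (1.28, adjusted p = 1.51e-05, edgeR), and Slc7a5, the large neutral amino acid transporter (1.07, adjusted p = 5.64e-05, edgeR), followed by Nupr1 (0.55) and Lonp1 (0.27, called in 3 of the 6 fits that left out a sample).

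Of 45 other genes of ER folding, translocation and degradation that were tested, 20 rose and 2 fell with Ad-hHIF2, against 15.9% and 13.6% of all genes. The split was 24 and 1 both with total counts and with TPM summed over protein-coding genes, and 4 and 0 on either TPM scale that sums over all genes. Their median log2 difference was 0.24, beside -0.01 over all genes (0.50 beside 0.24 with total counts), where that of the 11 chaperones among the members was 0.01. Ero1l, the oxidase that recharges protein disulfide isomerase and a known hypoxia-inducible gene, stood at 546, 553 and 476 CPM in Ad-GFP, at 1403, 1389 and 1312 CPM in Ad-hHIF2 and at 756, 729 and 711 CPM in Ad-hHIF1. The groups did not overlap, and Ad-hHIF2 was the highest (log2 difference from Ad-GFP 1.39, adjusted p = 1.64e-05, edgeR). Edem3, a mannosidase of ER-associated degradation, rose by 1.21 (adjusted p = 1.05e-05, edgeR), Creb3l2, an ER-resident transcription factor, by 1.32 and Os9, a lectin of the same degradation route, by 0.50. The genes that fell were P4hb, the main protein disulfide isomerase, and Fkbp11, a prolyl isomerase. P4hb stood at 882, 840 and 850 CPM in Ad-GFP, at 574, 605 and 577 CPM in Ad-hHIF2 and at 1023, 1029 and 1124 CPM in Ad-hHIF1, in the order of Hspa5, and differed from Ad-GFP by -0.55 with Ad-hHIF2 (adjusted p = 0.00120, edgeR). Fkbp11 differed by -0.72 (adjusted p = 0.00101, edgeR).

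**Figure D4:**
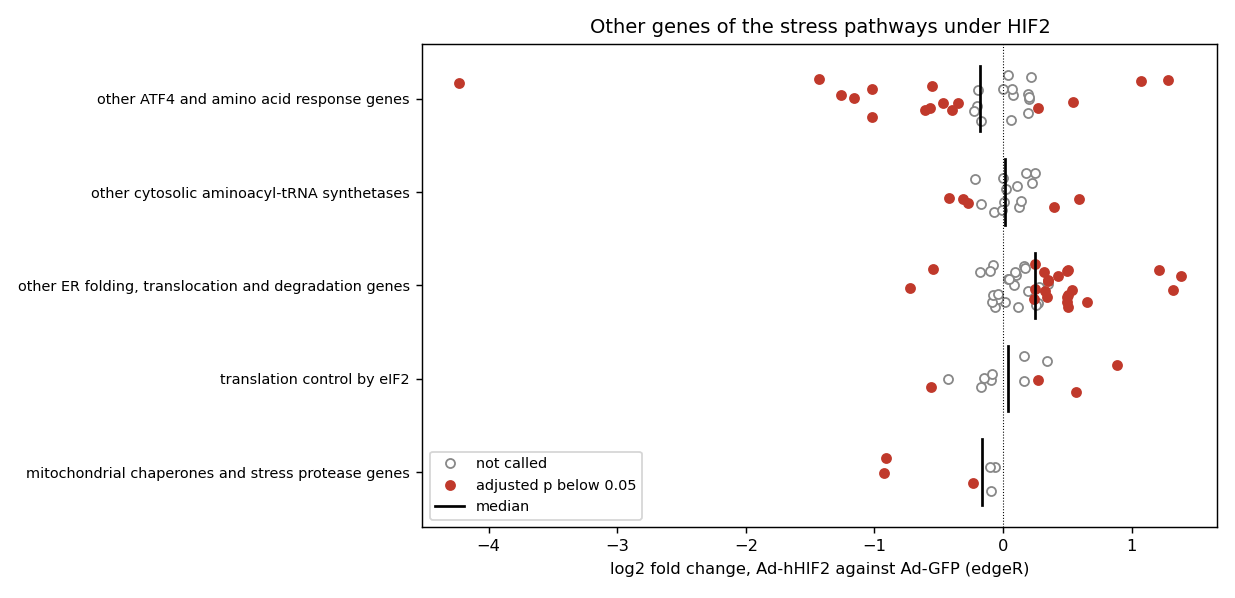
Log2 difference between Ad-hHIF2 and Ad-GFP for the 111 tested genes of 5 other lists, with filled points for an adjusted p below 0.05, a bar at each list's median and a vertical spread without meaning. The ER folding list has 20 filled points above 0 and 2 below, and the lowest point, Fgf21 at -4.23, rests on as few as 1 expected count in a sample and is not read as a fold.

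The counts in the remaining lists stand beside 15.9% of all genes higher and 13.6% lower, and those of the synthetases are near these shares. Of 18 other cytosolic aminoacyl-tRNA synthetases, 2 rose with Ad-hHIF2 (Mars by 0.59 and Rars by 0.39 on the log2 scale) and 3 fell, Farsb by 0.42, Dars by 0.31 and Hars by 0.27, the last called in only 1 of the 6 fits that left out a sample, and the sign of these 3 turned on both TPM scales that sum over all genes. Of 12 genes of translation control by eIF2, 3 rose, namely Eif2b2 of the exchange factor (0.89), Ppp1r15b, the constitutive phosphatase partner (0.57), and the haem-regulated kinase Eif2ak1 (0.27, called in 2 of the 6 fits that left out a sample), and Eif2s1, the eIF2 subunit that the stress kinases phosphorylate, fell by 0.56. Of 6 mitochondrial chaperone and stress protease genes, Hspd1 fell by 0.93 (adjusted p = 6.08e-05, edgeR) and Hspe1 by 0.91 (adjusted p = 6.96e-05, edgeR). Hspd1 stood at 130, 129 and 122 CPM in Ad-GFP, at 70.9, 67.4 and 61.6 CPM in Ad-hHIF2 and at 126, 138 and 132 CPM in Ad-hHIF1, with Ad-hHIF2 below both other groups. Hspa9 was also called (-0.23, adjusted p = 0.0393, edgeR), but in none of the 6 fits that left out a sample, and its sign turned with total counts and on every TPM scale.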

How the data were processed

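RNA sequencing of 9 organoid cultures was used, 3 per group as labelled. The authors removed low-quality reads and estimated expected counts and TPM per gene with RSEM, and the expected counts were deposited without normalization. The FPKM that the authors deposited were not used. The aligner, genome build, annotation and strandedness are not given in the sources used here, and without strand, reads of overlapping genes cannot be told apart.

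Expected counts were rounded, filtered with filterByExpr, scaled with TMM factors and tested by the quasi-likelihood method of edgeR (version 4.0.16, with R 4.3.3). Each HIF against Ad-GFP was fitted in 6 samples, and Ad-hHIF2 against Ad-hHIF1 in all 9. P-values were adjusted over all genes tested by the Benjamini-Hochberg method, and standard errors came from the F statistic. On simulated data the test found the largest changes but missed most of the smallest ones in each comparison. For Ad-hHIF1 against Ad-GFP it also missed most 2-fold changes, while in the other comparisons it found most of them. Every simulated gene had the common biological coefficient of variation of its comparison, so these outcomes do not carry over to genes that vary less. Libraries of a group differed by more than counting noise. Gene positions came from GENCODE M21 on GRCm38 by Ensembl identifier and promoters from RefSeq (GRCm38.p6) by symbol.

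Values per sample are given for members called with Ad-hHIF2 against Ad-GFP at a log2 difference of at least 0.58 in size, for those called in another comparison, and for Atf4, Ddit3, Atf6, Ern1, Xbp1, Eif2ak3 and Hspa5. Up to 4 genes per direction with the smallest adjusted p were named from each other list, and Pdia3 and Fgf21 for their values. Members and lists were chosen with earlier results of these data known. The alternatives were median-ratio size factors, total counts, a filter of 10 counts, no filter, DESeq2 1.42.0, limma 3.58.1 with TPM as log2(TPM + 1) or log2(TPM + 0.1), counts left unrounded, the replicate block, another set of samples in the fit, each sample left out, and, added after seeing the data, scaling by total counts or TPM of protein-coding genes. Tables and figures were made with Python 3.11.15, pandas 2.3.3 and matplotlib 3.10.9.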

Additional observations from a re-analysis of the deposited data

How the results depend on the processing

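With Ad-hHIF2 against Ad-GFP, the 14 members called became 7 with total counts, 1 on log2(TPM + 1) and 2 on log2(TPM + 0.1), and the 2 called at 2-fold became 0 and 1 on those TPM scales, the 1 being Vldlr, higher, with neither Ddit3 nor Ddit4 kept. The 50 other pathway genes called became 9 on either. With Ad-hHIF1, the 0 members called became 1 without a count filter and 5 with DESeq2, and the 0 other genes became 3, 5 and, with all 9 samples fitted together, 1. Between the HIFs, the 18 members became 8 with total counts, 2 on either TPM scale, 9 with total counts of protein-coding genes and 4 with TPM summed over protein-coding genes. There the 3 called at 2-fold became 1 on log2(TPM + 1), and the 51 other genes became 32, 6, 7 and 20 with total counts, log2(TPM + 1), log2(TPM + 0.1) and TPM summed over protein-coding genes. These scalings also moved the median log2 difference of all genes, to as much as 0.30 (Ad-hHIF2, log2(TPM + 0.1)) and 0.41 (between the HIFs, TPM summed over protein-coding genes). The share of protein-coding counts was 59.2% in Ad-hHIF2 replicate 1 against 41.7% to 49.4% elsewhere. By TPM, the protein-coding share was 7.26% in Ad-hHIF1 replicate 3 and 6.77% in Ad-hHIF2 replicate 1, against 4.05% to 5.03% elsewhere. The part of these shares was not tested. Leaving out each sample gave 10 to 11, 0 and 13 to 20 members called in the 3 comparisons, 2, 0 and 3 to 4 at 2-fold, and 36 to 54, 0 and 40 to 52 other genes. The replicate block gave 14 (13 shared; Atf4 lost and Atf5 gained), 0 and 18 members called, and 50, 0 and 46 other genes; same-numbered samples did not all deviate together (correlations from -0.27 to 0.25), so the numbers were not taken as pairs.

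The following log2 differences had the opposite sign to the one reported, and the cause was not tested. The median over all genes tested moved upward in the same settings. Against Ad-GFP it went from -0.01 to 0.24 with total counts and to 0.12 on log2(TPM + 1). It went to 0.30 on log2(TPM + 0.1) and to 0.24 with TPM summed over protein-coding genes. Between the HIFs it went from -0.01 to 0.06, 0.17 and 0.41 on these 3 TPM scales in that order. With Ad-hHIF2 against Ad-GFP, Atf4 was at 0.0065 with total counts, 0.19 on either TPM scale and 0.019 with TPM summed over protein-coding genes, Chac1 at 0.050, 0.20, 0.23 and 0.060 in that order, and Phgdh at 0.047 on either TPM scale. Manf was at 0.43, 0.45 and 0.28 on log2(TPM + 1), log2(TPM + 0.1) and TPM summed over protein-coding genes. Between the HIFs, Psat1 was at 0.0034, 0.00012 and 0.18 and Manf at 0.089, 0.082 and 0.26 on those scales. TPM summed over protein-coding genes put Atf4 at 0.13, Ern1 at 0.078, Psph at 0.16, Pdia4 at 0.071 and Pdia6 at 0.14.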
